A study of Mus musculus with 2 samples.

Results

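Transforming growth factor beta (TGF-beta) and activin signalling was followed through 8 genes of the 31053 in the deposited tables, in CD45+ cells sorted from mouse lung. The genes were picked by symbol for their place in the pathway. Tgfb1, Tgfb2 and Inhba encode ligands, Tgfbr1 and Tgfbr2 encode the receptor pair, and Pmepa1, Smad7 and Skil encode inhibitors that the pathway itself induces. The exposed library came from mice that breathed diesel exhaust particles (DEP) at 500 µg/m³ in a whole-body chamber, 1 hour a day on 5 days of each of 2 weeks. Its genotype label was Ccr2-/- (KO), CD45.3+. The control library came from mice given no DEP, with the genotype label Ccr2-/- (KO), CD45.1+. The libraries thus differ in the CD45 label as well as in exposure. In any ratio of exposed over control, exposure, CD45 label and library cannot be told apart. The series design also names C57BL/6J wild-type mice, and whether a library pooled animals, and their age, are not given in the sources used here.

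TGF-beta ligands are secreted in a latent form and freed outside the cell, after which they bind TGFBR2, which recruits and phosphorylates TGFBR1. The active receptor phosphorylates SMAD2 and SMAD3, which enter the nucleus with SMAD4 and switch on genes that include those for the inhibitors SMAD7, SKIL and PMEPA1. Activin A, a dimer of the inhibin beta A chain encoded by Inhba, uses activin receptors but the same SMADs. In the lung, alveolar macrophages need TGF-beta to develop and to persist in the airspaces, and interstitial macrophages occupy the tissue between airways and vessels.

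Promoter sequences are shown for the 3 ligand genes, since Tgfb1 was read in all 12 cell classes compared, while most Tgfb2 and Inhba UMIs lay in few of the 9 and 8 classes in which they were read. They come from RefSeq on GRCm38.p6, in which 5 of the 8 genes had an entry, and each holds the 250 bases before the annotated start, 5′ to 3′ on the gene's strand. Capitals mark matches on either strand to TATAAA, to the SMAD-binding CAGAC, to TGANTCA (a motif of AP-1) or to the E-box CACGTG.
Tgfb1 (chr7:25686752-25687001, plus strand): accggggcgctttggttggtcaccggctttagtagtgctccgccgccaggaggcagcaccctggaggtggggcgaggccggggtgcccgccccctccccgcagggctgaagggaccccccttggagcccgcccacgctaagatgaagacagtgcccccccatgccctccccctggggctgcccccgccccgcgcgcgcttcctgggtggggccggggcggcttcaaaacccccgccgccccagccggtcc
Tgfb2 (chr1:186705990-186706239, minus strand): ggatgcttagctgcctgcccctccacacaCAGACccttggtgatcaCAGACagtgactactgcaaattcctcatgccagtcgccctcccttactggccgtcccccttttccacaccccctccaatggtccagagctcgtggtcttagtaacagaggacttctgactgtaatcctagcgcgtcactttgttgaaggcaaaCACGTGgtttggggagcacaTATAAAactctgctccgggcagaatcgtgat
Inhba (chr13:16011601-16011850, plus strand): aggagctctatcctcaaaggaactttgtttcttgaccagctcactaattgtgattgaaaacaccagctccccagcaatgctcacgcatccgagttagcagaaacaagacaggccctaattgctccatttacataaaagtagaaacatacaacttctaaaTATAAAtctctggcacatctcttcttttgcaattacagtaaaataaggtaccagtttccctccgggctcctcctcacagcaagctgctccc
The Tgfb1 window had 75.2% G and C and none of these motifs, and the first of the Tgfbr1 windows had 74.8%. The Tgfb2 window had 53.6% G and C, 1 TATAAA, 2 CAGAC and 1 CACGTG, and the Inhba window had 43.2% G and C and 1 TATAAA. The median over all promoters was 52.4%. Among 32536 promoter windows of that length, 12.3% held TATAAA, 42.2% CAGAC, 6.73% TGANTCA and 6.04% CACGTG. A match is a description of letters and not a bound site.

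Each gene is protein-coding in the GENCODE annotation of mm10. Tgfb1 (ENSMUSG00000002603) lies on chromosome 7 from 25687002 to 25705077 on the plus strand, and Tgfb2 (ENSMUSG00000039239) on chromosome 1 from 186622792 to 186705989 on the minus strand. Inhba (ENSMUSG00000041324) lies on chromosome 13 from 16011851 to 16031621 on the plus strand. Tgfbr1 (ENSMUSG00000007613) lies on chromosome 4 from 47353222 to 47414931 on the plus strand, and Tgfbr2 (ENSMUSG00000032440) on chromosome 9 from 116084293 to 116175360 on the minus strand. Pmepa1 (ENSMUSG00000038400) lies on chromosome 2 from 173224458 to 173276533 on the minus strand, Smad7 (ENSMUSG00000025880) on chromosome 18 from 75367529 to 75395935 on the plus strand, and Skil (ENSMUSG00000027660) on chromosome 3 from 31095058 to 31122577 on the plus strand. An exon of Tgfb2 overlaps 1 gene on the other strand, Gm29491, and no exon of the other members overlaps another gene.

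The exposed library held 10000 barcodes and 67030914 unique molecular identifiers (UMIs, each a counted transcript molecule), and the control library held 10312 barcodes and 62047730 UMIs. After filters 8690 exposed and 8940 control cells remained, with medians of 4158 and 3678 UMIs, and 23 barcodes occurred in both libraries. Clusters made without the 8 genes and their pathway were named from markers. The 17 alveolar macrophage markers summed to 11227 CPM in exposed and 11262 CPM in control alveolar macrophages, and to 1474 and 1587 CPM in interstitial macrophages. The 16 interstitial macrophage markers summed to 44910 CPM in exposed and 34788 CPM in control interstitial macrophages, and to 874 and 435 CPM in alveolar macrophages. Each marker of both lists had UMIs in both classes. Since the names came from these markers, the sums describe the classes and do not test them. Ccr2, the receptor named in the genotype label of both libraries, was read in 97.9% of exposed and 92.2% of control classical monocytes, at 778 and 581 CPM (a gene's UMIs scaled to the summed UMIs of its class). Whether the counted 3′ tags lie in the deleted part of Ccr2 is not given in the sources used here. With 1 library for each group there is no spread between animals, so no p-value was made, and the 95% intervals cover counting error alone. They also treat UMIs as independent, although the UMIs of a gene can bunch in a few cells, so the number of cells is given beside them. Fewer expressing cells and less RNA per cell cannot be told apart in a summed level.

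Tgfb1, the most studied of the TGF-beta ligands, was read in all 12 classes that had at least 50 cells in each library. Its level was highest in classical monocytes, at 542 CPM [525 to 559] in the exposed and 611 CPM [585 to 638] in the control library. Alveolar macrophages followed, at 461 CPM [448 to 474] in the exposed and 505 CPM [491 to 519] in the control library. Nonclassical monocytes came next, at 408 CPM in the exposed and 468 CPM in the control library, and the control intervals of those last 2 classes overlapped. Interstitial macrophages had 238 CPM [209 to 270] in the exposed and 265 CPM [242 to 291] in the control library, and their intervals overlapped those of B cells, NK cells, gamma-delta T cells and group 2 innate lymphoid cells. T cells, at 101 CPM exposed and 119 CPM control, and neutrophils, at 95.6 CPM exposed and 88.6 CPM control, stood lowest. Cells with a Tgfb1 UMI numbered 587 of 614 alveolar macrophages and 88 of 107 interstitial macrophages in the exposed library, and 476 of 495 and 116 of 135 in the control library.

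Tgfb2, another TGF-beta ligand, was read at low counts and mostly in macrophages. Alveolar macrophages had 70 Tgfb2 UMIs in 38 of 614 exposed cells and 126 Tgfb2 UMIs in 59 of 495 control cells, which gave 6.80 CPM [5.30 to 8.59] and 12.96 CPM [10.8 to 15.4]. That was 87.5% of all Tgfb2 UMIs of the exposed library and 56.5% of those of the control library. Interstitial macrophages had no Tgfb2 UMI in 107 exposed cells, which allows a share of up to 2.80% of cells with a UMI, against 59 UMIs in 10 of 135 control cells. Nonclassical monocytes had 1 Tgfb2 UMI in the exposed and 14 in the control library, and type 2 dendritic cells had 0 and 6. At least 3 non-immune markers were seen in 2 exposed and 15 control nonclassical monocytes, and the part of such cells in the Tgfb2 count was not tested. B cells, taken as the background of free RNA, had 0 Tgfb2 UMIs in 1793 exposed cells and 2 in 2006 control cells. After thinning every cell to 1000 UMIs, a Tgfb2 UMI remained in 5 of 607 exposed and 7 of 485 control alveolar macrophages, so the single-cell shares were close to the limit of detection.

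Inhba transcripts were read above all in neutrophils. Neutrophils had 321 Inhba UMIs in 151 of 2611 exposed cells and 434 UMIs in 180 of 2755 control cells, at 40.3 CPM [36.0 to 45.0] and 57.1 CPM [51.9 to 62.8]. They held 65.0% of the exposed and 75.1% of the control Inhba UMIs. Nonclassical monocytes followed, at 17.8 CPM in the exposed and 22.2 CPM in the control library. Over that whole class the 14 neutrophil markers summed to 38757 CPM in the exposed and 32411 CPM in the control library. The part of neutrophil RNA in its Inhba level was not tested. Classical monocytes had 13.4 CPM [10.9 to 16.3] in the exposed and 6.24 CPM [3.86 to 9.54] in the control library. Alveolar macrophages had 24 Inhba UMIs in 14 exposed cells and 59 UMIs in 17 control cells, and 32 of the 59 control UMIs lay in 1 cell. Interstitial macrophages had 0 Inhba UMIs in both libraries, which allows up to 2.87 CPM in the exposed and 1.76 CPM in the control library. B cells had 1 Inhba UMI in the exposed and 4 in the control library.

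Among the 12 classes compared, both receptor genes were highest in macrophages. Tgfbr1, the type I receptor, had 162 CPM [138 to 188] in exposed and 115 CPM [99.5 to 132] in control interstitial macrophages. Alveolar macrophages had 148 CPM [141 to 156] of Tgfbr1 in the exposed and 145 CPM [137 to 152] in the control library, so that the order of the 2 macrophage classes was not resolved in the exposed library and alveolar macrophages stood higher in the control library. Without 7 control cells with body-cavity macrophage markers, described below, control interstitial macrophages had 195 Tgfbr1 UMIs, at 124 CPM. Whether the control order is resolved without those cells was not tested. Nonclassical monocytes had 69.8 CPM of Tgfbr1 in the exposed and 83.2 CPM in the control library, apart from the macrophages above and the dendritic cells below. Classical monocytes, neutrophils and lymphocytes had from 11.1 to 20.9 CPM in the exposed and from 13.8 to 26.3 CPM in the control library.

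Tgfbr2, the ligand-binding type II receptor, had 211 CPM [184 to 241] in exposed and 213 CPM [191 to 236] in control interstitial macrophages. In alveolar macrophages it had 196 CPM [187 to 204] in the exposed and 203 CPM [194 to 212] in the control library, and the intervals of both macrophage classes overlapped in each library. T cells came next, at 145 CPM in the exposed and 168 CPM in the control library. Classical monocytes, at 27.3 CPM exposed and 28.2 CPM control, and type 1 dendritic cells, at 24.5 CPM exposed and 34.8 CPM control, stood lowest. The classes thus ordered differently for the 2 receptor genes below the macrophages, with nonclassical monocytes next for Tgfbr1 and T cells next for Tgfbr2.

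Pmepa1 encodes a membrane protein that binds SMAD2 and SMAD3 and holds them from the receptor. Among the 12 classes compared, it had its top levels in both macrophage classes and type 1 dendritic cells. Interstitial macrophages had 396 CPM [359 to 436] in the exposed and 201 CPM [181 to 224] in the control library. Alveolar macrophages had 201 CPM [192 to 209] in the exposed and 236 CPM [227 to 246] in the control library. The order of the 2 macrophage classes was thus opposite in the libraries, with their intervals apart in each. Without 7 control cells with body-cavity macrophage markers, described below, control interstitial macrophages had 338 Pmepa1 UMIs, at 215 CPM. Whether the control intervals stay apart without those cells was not tested. Type 1 dendritic cells had 159 CPM in the exposed and 156 CPM in the control library. Classical monocytes had 10 Pmepa1 UMIs in the exposed and 14 in the control library, and neutrophils had 11 and 17. After thinning to 1000 UMIs, Pmepa1 remained in 29 of 105 exposed and 25 of 134 control interstitial macrophages, against 36 of 1786 exposed and 47 of 1970 control B cells. Median depths before thinning were 9434 UMIs in exposed interstitial macrophages and 10993 UMIs in control ones, and 3644 UMIs in exposed and 3303.5 UMIs in control B cells.

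Smad7, the inhibitory SMAD that blocks the type I receptor, was distributed differently. T cells were highest, at 279 CPM [268 to 291] in the exposed and 306 CPM [294 to 319] in the control library, and B cells and NK cells followed. Alveolar macrophages had 7.96 CPM [6.33 to 9.88] in the exposed and 14.2 CPM [11.9 to 16.8] in the control library, and classical monocytes had 9.41 and 11.6 CPM. Those were the 2 lowest classes in both libraries. Skil, a nuclear repressor that binds SMAD complexes, was read in every class. Interstitial macrophages were highest for Skil, at 591 CPM [545 to 639] in the exposed and 523 CPM [489 to 559] in the control library, and type 1 dendritic cells came second, at 387 CPM exposed and 404 CPM control. Alveolar macrophages had 228 CPM of Skil in the exposed and 270 CPM in the control library. The inhibitor genes therefore did not share 1 order of classes, since alveolar macrophages stood among the highest for Pmepa1 and among the lowest for Smad7.

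**Figure D1:**
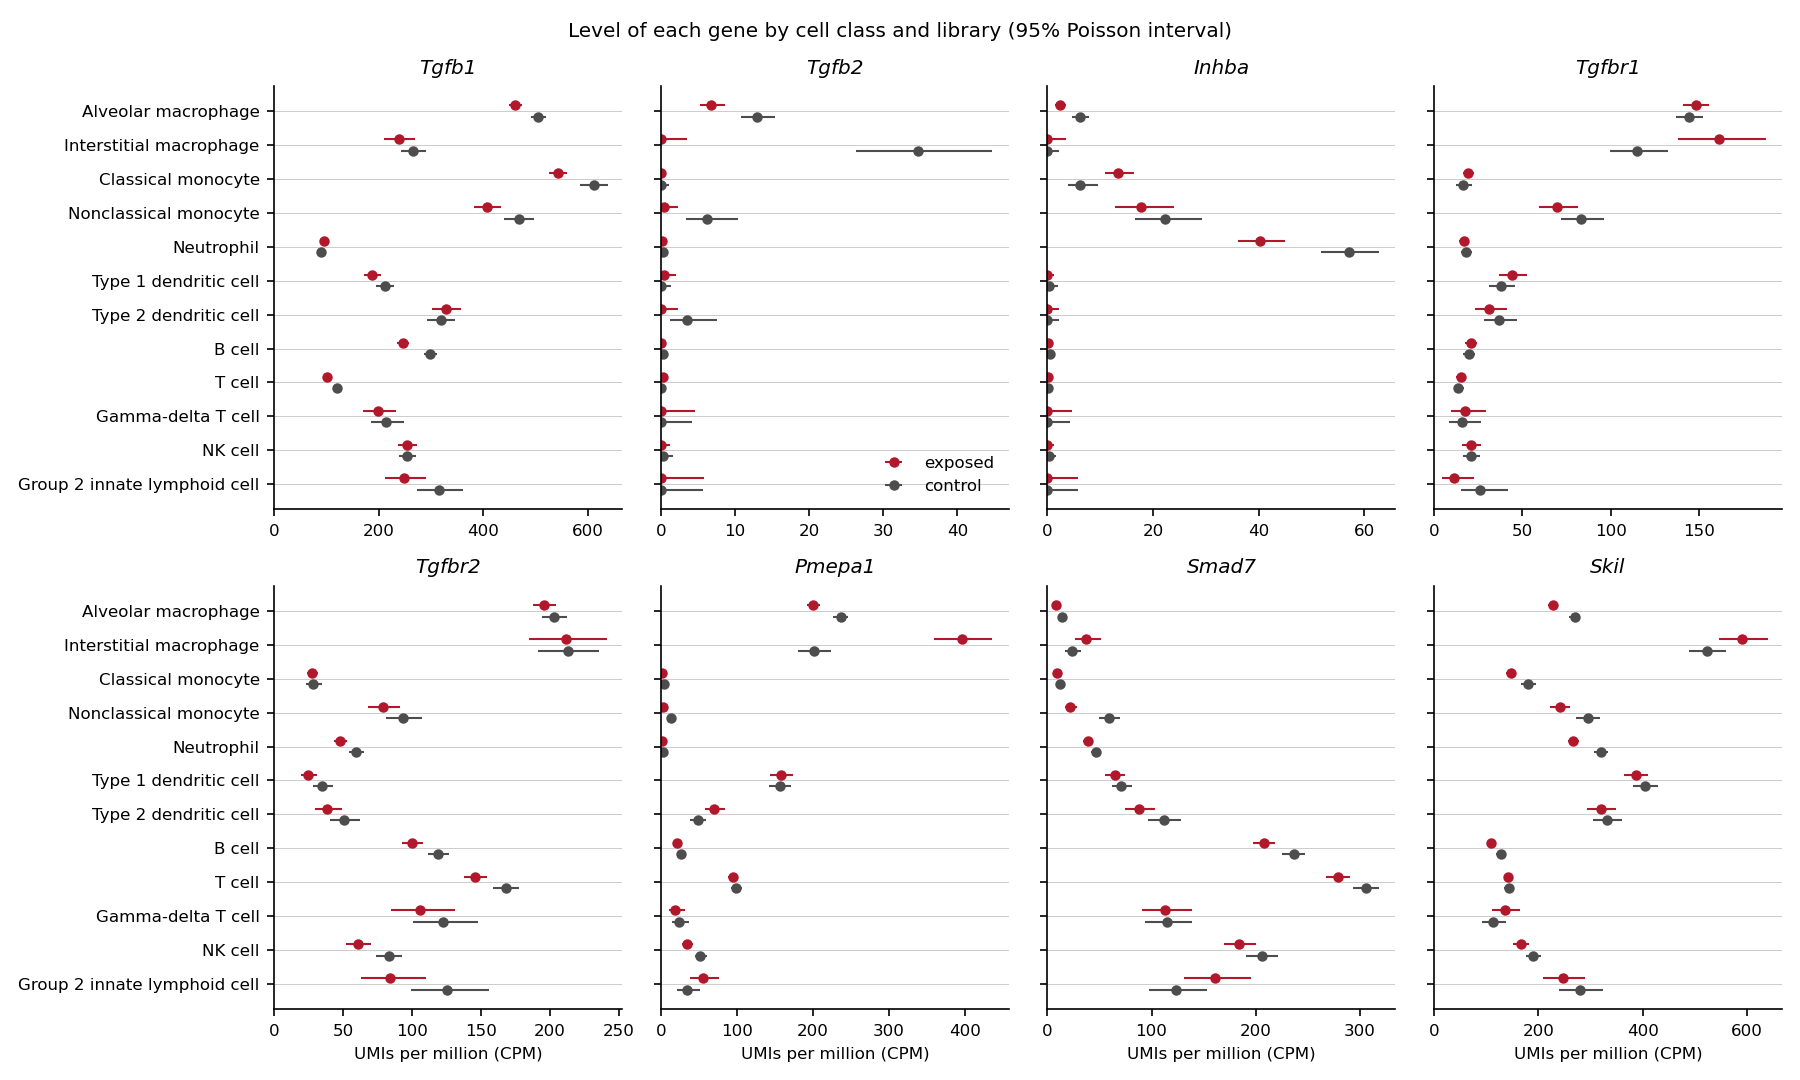
Each panel plots the level of 1 gene, in CPM, in 12 cell classes, with exposed cells above control cells in each row and bars for 95% Poisson intervals. Tgfbr1, Tgfbr2 and Pmepa1 lie furthest right in the 2 macrophage rows, Inhba in neutrophils at 40.3 CPM exposed and 57.1 CPM control, and Smad7 in T cells.

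In alveolar macrophages 3 of the 8 genes were past 1.5-fold between the libraries, each lower in the exposed library. Past 1.5-fold here means a ratio over 1.5 or under its inverse, an interval that leaves out equality and a summed count of at least 20. Of all 11022 genes counted in that class 5.59% were past it. The median log2 ratio of exposed over control was -0.24 over the 8 genes and -0.06 over all genes counted. Tgfb1 had 4750 UMIs in exposed and 4910 in control alveolar macrophages, a log2 ratio of -0.13 [-0.19 to -0.07]. Tgfbr1 had 1525 exposed and 1406 control UMIs, a log2 ratio of 0.03 [-0.07 to 0.14], and Tgfbr2 had 2016 exposed and 1973 control UMIs, a log2 ratio of -0.05 [-0.14 to 0.04]. Both receptor intervals thus included equality and lay within 1.5-fold at this depth. Pmepa1 had 2066 exposed and 2299 control UMIs, a log2 ratio of -0.24 [-0.32 to -0.15], and Skil had 2347 exposed and 2622 control UMIs, at -0.24 [-0.32 to -0.16], both short of 1.5-fold.

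The 3 genes past the fold all had low counts. Tgfb2, with 70 exposed and 126 control UMIs, had a log2 ratio of -0.93 [-1.37 to -0.50]. Its ratio stayed past 1.5-fold under each of the 11 other processings run, including removal of the cell with the most UMIs in each library, which gave -1.08. Inhba, with 24 exposed and 59 control UMIs, had a log2 ratio of -1.38 [-2.13 to -0.67], and without the top cell of each library it was -0.93 [-1.95 to 0.03], no longer past the fold. Smad7, with 82 exposed and 138 control UMIs, had a log2 ratio of -0.83 [-1.25 to -0.43]. With doublets kept it had 191 exposed and 232 control UMIs, at -0.35 [-0.64 to -0.07], short of the fold. Several marker lists of other cells were also lower in exposed alveolar macrophages. The 12 T cell markers summed to 18.4 CPM in exposed and 94.9 CPM in control alveolar macrophages, the 12 NK cell markers to 15.9 and 58.8 CPM, the 12 B cell markers to 75.9 and 155 CPM and the 14 neutrophil markers to 574 and 1015 CPM. Each of the T, NK and B cell markers was seen in both libraries, and 13 of 14 neutrophil markers in the exposed and 14 in the control library. Other marker lists went the other way, with the 16 interstitial macrophage markers at 874 CPM in exposed and 435 CPM in control cells (14 of 16 higher) and the 12 classical monocyte markers at 1305 and 1055 CPM (9 of 12 higher). Lymphocyte marker UMIs occurred in 112 of 614 alveolar macrophages of the exposed and 201 of 495 of the control library. Without those cells Smad7 had 65 exposed and 43 control UMIs and a log2 ratio of -0.06 [-0.64 to 0.53]. Tgfb2 without them had 47 exposed and 69 control UMIs and a log2 ratio of -1.21 [-1.78 to -0.66].

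Alveolar macrophages were also divided at the median of the summed CPM of 7 chemokine and cytokine genes (Ccl3, Ccl4, Cxcl1, Cxcl2, Cxcl3, Tnf and Il1a). Inhba lay in the upper part, with 20 of 24 exposed UMIs and 58 of 59 control UMIs. Skil was higher in the upper part, at 276 CPM against 178 CPM in the exposed library and 299 CPM against 232 CPM in the control library. Pmepa1 was also higher there, at 233 CPM against 167 CPM in the exposed library and 270 CPM against 194 CPM in the control library. Tgfb2 was lower in the upper part, at 5.00 CPM against 8.63 CPM in the exposed library and 10.1 CPM against 16.6 CPM in the control library. The lower Tgfb2 level of the exposed library was read in both parts, with log2 ratios of -1.01 [-1.75 to -0.32] in the upper and -0.95 [-1.52 to -0.38] in the lower.

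Tgfb2 was also counted in each of the 3 clusters named alveolar macrophages. The main one, with 500 exposed and 382 control cells, had 47 exposed and 102 control Tgfb2 UMIs, a log2 ratio of -1.28 [-1.81 to -0.77]. A second one, with 83 exposed and 78 control cells at medians of 27921 and 31109 UMIs, had 23 Tgfb2 UMIs in each library, at 0.13 [-0.77 to 1.03]. The third, with 31 exposed and 35 control cells, had 0 and 1, too few for a ratio. Inhba had 9 exposed and 55 control UMIs in the main cluster and 15 exposed and 4 control UMIs in the second. Most of the control Inhba UMIs lay in 1 cell, as given above, and no Inhba interval by cluster is given. The Tgfb2 intervals of the main and second cluster met, and the difference between clusters was not tested for either gene.

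In interstitial macrophages 2 of the 7 members with enough counts were past 1.5-fold, Pmepa1 higher and Tgfb2 lower in the exposed library, against 7.79% of all genes counted in that class. The median log2 ratio was 0.18 over the 7 genes and -0.05 over all genes. Pmepa1 had 414 UMIs in 69 of 107 exposed cells and 343 UMIs in 85 of 135 control cells, a log2 ratio of 0.97 [0.76 to 1.19]. The share of cells with a Pmepa1 UMI was 64.5% [54.6 to 73.5] in the exposed and 63.0% [54.2 to 71.1] in the control library, while cells with a UMI held a mean of 6.00 UMIs in the exposed and 4.04 UMIs in the control library. Cells with 1 Pmepa1 UMI numbered 7 exposed and 26 control, those with 8 to 15 UMIs 18 exposed and 14 control, and those with 16 or more 3 exposed and 0 control. The shares of positive cells thus overlapped, while positive cells of the exposed library held more UMIs each. Over the 11 other processings the log2 ratio of Pmepa1 ran between 0.76 and 1.12 and remained past the fold in each.

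Tgfbr1 had 169 exposed and 196 control UMIs in interstitial macrophages, a log2 ratio of 0.49 [0.18 to 0.79], short of 1.5-fold. It was 0.30 with doublets kept, 0.38 by a direct marker gate and 0.28 [-0.04 to 0.59] with a stricter cell filter, which includes equality. With each cell weighing the same it was 0.61, a value over 1.5-fold with no interval of its own. Smad7 had 39 exposed and 40 control UMIs, a log2 ratio of 0.67 [-0.01 to 1.34]. Without cells that carried a lymphocyte marker, 23 of 107 exposed and 55 of 135 control cells, Smad7 had 25 exposed and 8 control UMIs and a log2 ratio of 1.97 [0.78 to 3.33], and in cells taken by a direct marker gate it was 1.02, both past the fold. Skil had 618 exposed and 891 control UMIs, at 0.18 [0.03 to 0.33]. Tgfb1 had 249 exposed and 452 control UMIs, at -0.16 [-0.39 to 0.07], and Tgfbr2 had 221 exposed and 362 control UMIs, at -0.01 [-0.26 to 0.24]. Markers of other cells also differed in this class. Classical monocyte markers summed to 1192 CPM in the exposed and 2346 CPM in the control library, with 4 of 12 higher in the exposed library. That list includes Fn1, which alone had 87 exposed and 2156 control UMIs in this class and made up the difference between those sums. Of its control UMIs 1651 lay in 7 cells with body-cavity macrophage markers, described below. Neutrophil markers (11 of 14 seen in the exposed and 12 in the control library) summed to 770 and 2250 CPM. Proliferation markers summed to 101 and 267 CPM. The part of all these markers in the Pmepa1 ratio was not tested.

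**Figure D2:**
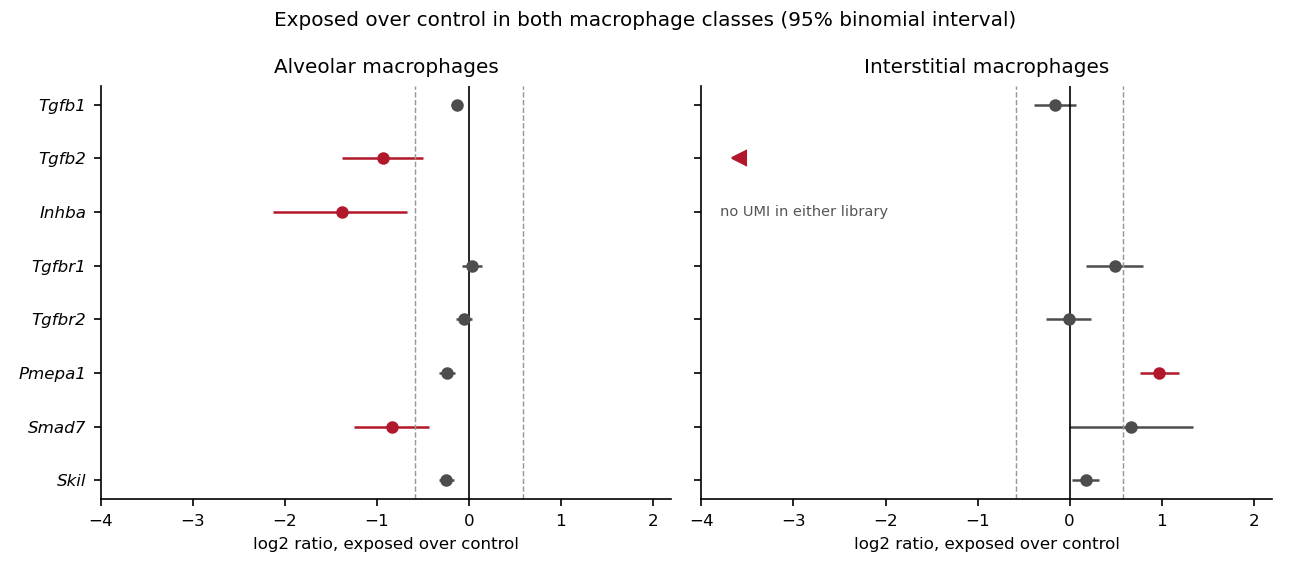
The log2 ratio of exposed over control is plotted for 8 genes in alveolar macrophages (left) and interstitial macrophages (right), with bars for exact 95% binomial intervals, red for ratios past 1.5-fold (dashed lines) and a triangle for a bound against 3 counts. Pmepa1 lies at -0.24 in alveolar and 0.97 in interstitial macrophages.

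Interstitial macrophages were divided by a UMI of Folr2, Lyve1 or Cd163, genes that mark the subset near vessels. The cells with such a UMI numbered 64 exposed and 88 control, and those without it 43 exposed and 47 control. Tgfbr1 was lower in cells with these markers, at 90.6 CPM against 279 CPM in the exposed library and 80.2 CPM against 190 CPM in the control library. Tgfbr2 was higher in them, at 256 CPM against 137 CPM in the exposed library and 252 CPM against 129 CPM in the control library. The 2 receptor genes thus had opposite gradients between the subsets, with intervals apart in each library. Pmepa1 was higher in the exposed library in both subsets, at 362 CPM exposed and 176 CPM control in cells with the markers, and at 451 CPM exposed and 256 CPM control in cells without. Its log2 ratios were 1.04 [0.77 to 1.32] with the markers and 0.82 [0.49 to 1.15] without.

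**Figure D3:**
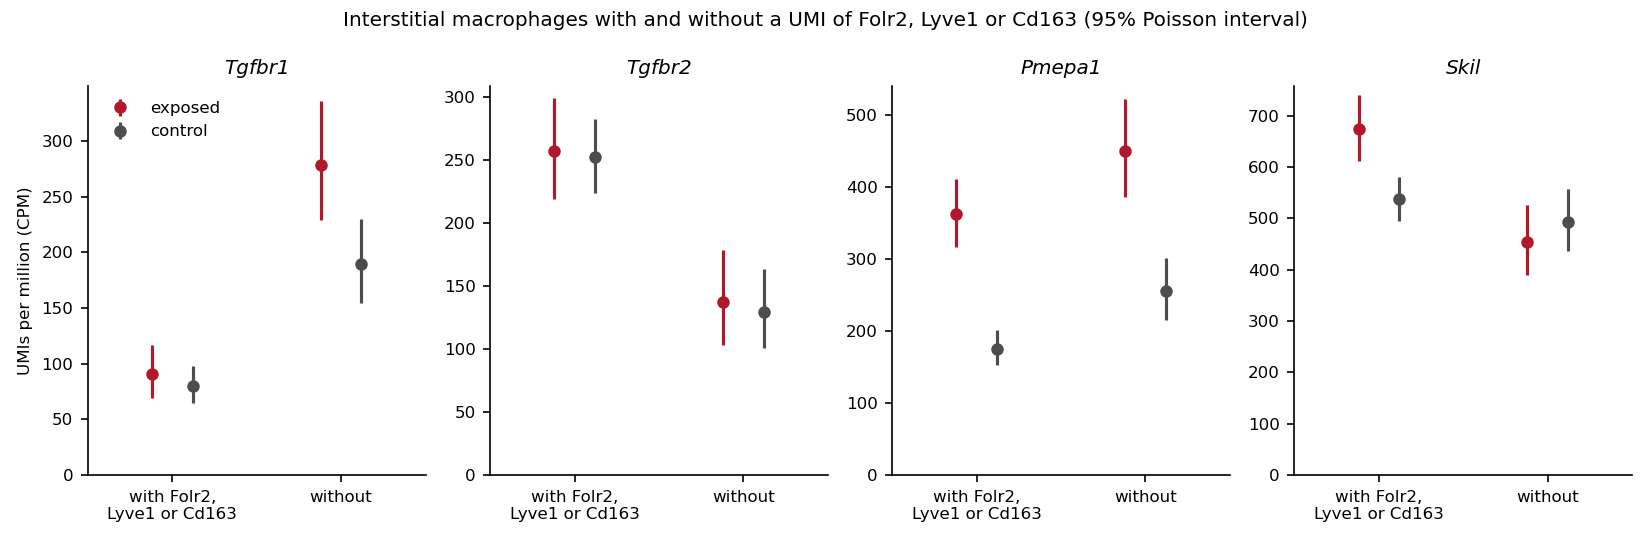
Levels of 4 genes in CPM, with 95% Poisson intervals, are plotted in interstitial macrophages with and without a UMI of Folr2, Lyve1 or Cd163, exposed left of control. Tgfbr1 is higher and Tgfbr2 lower in cells without these markers in both libraries, and exposed cells lie above control cells for Pmepa1 in both subsets.

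The Tgfb2 difference in interstitial macrophages came from few cells. Its level was at least 9.52-fold lower in the exposed library by the exact 95% interval, and 12.1-fold lower against the floor of 3 counts without counting error in the control library. The control count was 59 UMIs in 10 cells, of which 1 held 20. Genes known to mark the large macrophages of the pleural and peritoneal cavities were then counted, a list of 10 chosen after those cells were seen (Gata6, Selp, Alox15, Prg4, Icam2, Serpinb2, Cd5l, F5, Naip1 and Garnl3). They had 1955 UMIs in the 10 control cells with a Tgfb2 UMI, 14 UMIs in 107 exposed cells and 206 UMIs in the other 125 control cells. UMIs of at least 3 of the 10 genes were seen in 7 control cells and in none of the exposed cells, and those 7 cells held 47 of the 59 Tgfb2 UMIs. In the classical monocyte class 7 exposed cells and 1 control cell had UMIs of at least 3 of the 10 genes, and that class had 0 Tgfb2 UMIs in both libraries. Left without them, control interstitial macrophages had 12 Tgfb2 UMIs, under the count of 20.

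The same markers were read in exposed droplets called as doublets. When doublets were kept, 2 exposed droplets in the interstitial cluster had at least 8 of the 10 markers, no UMI of 7 B and T cell markers and 35 Tgfb2 UMIs. Whether these droplets held a myeloid cell of another class as well was not tested. The log2 ratio was then -0.34 [-0.99 to 0.29], from 35 exposed and 59 control UMIs, and no longer past the fold. The count of 0 in exposed interstitial macrophages thus held with those 2 droplets removed and not with them kept. Pmepa1 had 5 UMIs in those 7 control cells, and its log2 ratio without them was 0.88 [0.67 to 1.09]. In alveolar macrophages the 10 markers had 6 UMIs in exposed and 13 UMIs in control cells with a Tgfb2 UMI, and without the 1 exposed cell that had 3 of them the Tgfb2 log2 ratio was -0.93.

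**Figure D4:**
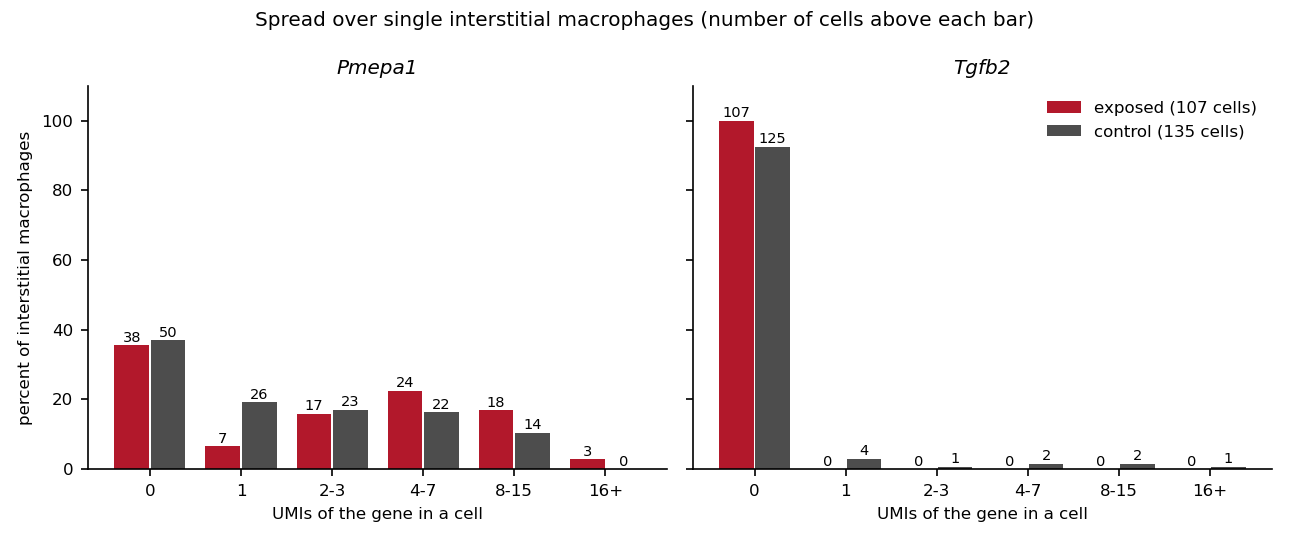
The percent of interstitial macrophages is plotted by the number of UMIs of Pmepa1 (left) and Tgfb2 (right) in a cell, exposed bars left of control bars, with the number of cells above each bar. For Pmepa1 38 exposed and 50 control cells had no UMI, while for Tgfb2 all 107 exposed and 125 control cells had none.

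The other 10 classes held 5 further ratios past the fold. In classical monocytes 2 of 7 members were past it, against 11.3% of all genes. Inhba had 98 UMIs in 41 of 582 exposed cells and 21 UMIs in 12 of 374 control cells, a log2 ratio of 1.10 [0.41 to 1.85]. It stayed past 1.5-fold without the top cell of each library, at 1.51, and without cells with a lymphocyte marker, at 1.33. Pmepa1 had 10 exposed and 14 control UMIs there, at -1.61 [-2.94 to -0.33], and was not past the fold when cells with a lymphocyte marker were left out, at -0.47, in cells taken by a direct marker gate, at -0.46, or with a stricter cell filter, at -1.13. In nonclassical monocytes 2 of 7 members were past it, against 10.4% of all genes. Pmepa1 had 7 exposed and 29 control UMIs, at -2.12 [-3.56 to -0.90], and Smad7 had 52 exposed and 132 control UMIs, at -1.42 [-1.91 to -0.94]. Epithelial markers, of which 3 of 8 were seen in exposed and all 8 in control nonclassical monocytes, summed to 2.54 and 3065 CPM. At least 3 non-immune markers were seen in 2 exposed and 15 control cells, without which Pmepa1 had 7 exposed and 4 control UMIs, a log2 ratio of 0.64 [-1.34 to 2.86], and Smad7 had 49 and 81, at -0.90 [-1.44 to -0.37]. With doublets kept Pmepa1 was at -0.30, from 15 exposed and 13 control UMIs, and by the direct marker gate it was at 0.67 and Smad7 at -0.26, none of these past the fold.

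In NK cells 1 of 6 members was past the fold, against 4.36% of all genes. Pmepa1 had 108 UMIs in 73 of 656 exposed cells and 184 UMIs in 114 of 764 control cells, a log2 ratio of -0.59 [-0.94 to -0.24]. That lies at the edge of 1.5-fold, and of the other processings those that changed cell calling or centring gave ratios from -0.58 to -0.50, short of it. None of the 7 members counted in neutrophils was past the fold, against 9.76% of all genes. Inhba was at -0.50 [-0.72 to -0.29] there, and Pmepa1, with 11 exposed and 17 control UMIs, at -0.70 [-1.94 to 0.48]. None of the 6 members counted was past it in type 1 dendritic cells (7.36% of all genes), type 2 dendritic cells (9.86%), B cells (6.53%), T cells (5.25%), gamma-delta T cells (5.26%) or group 2 innate lymphoid cells (7.1%). Pmepa1 had a log2 ratio of 0.53 [0.11 to 0.96] in type 2 dendritic cells, from 114 exposed and 83 control UMIs. Of 78 member and class pairs with enough counts, 59 or 75.6% had a lower level in the exposed library, against 58.9% of the pairs of all genes counted in the same classes. The median log2 ratio of all genes was itself -0.14 in B cells and -0.11 in T cells, nonclassical monocytes and neutrophils.

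T cells were divided by their markers. Pmepa1 was lower in Cd4 than in Cd8 cells, at 67.1 CPM against 114 CPM in the exposed library and 65.6 CPM against 121 CPM in the control library. Tgfbr2 ran the other way, at 177 CPM in Cd4 and 117 CPM in Cd8 cells of the exposed library and 187 and 149 CPM in those of the control library. Smad7 was similar in both, at 286 and 262 CPM in the exposed library and 300.3 and 299 CPM in the control library. Tgfb1 in the 33 exposed and 48 control cells with a Foxp3 UMI, which marks regulatory T cells, was 154 CPM in each library.

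The wider pathway was described by 67 genes in 7 lists. In alveolar macrophages 44 were counted and 1 was past the fold, against 5.59% of all genes, and their median log2 ratio was -0.07. That gene was Bambi, a decoy receptor, with 11 exposed and 24 control UMIs and a log2 ratio of -1.21 [-2.39 to -0.12]. It was not past the fold without the top cell of each library, at -0.89, or without cells with a lymphocyte marker, at 0.08 from 10 exposed and 6 control UMIs. The gene with the most UMIs in each list was short of 1.5-fold in all 7 lists. Gdf15, a stress-induced ligand, had 4306 exposed and 4511 control UMIs, at -0.15. Fn1, the matrix protein fibronectin, had 4338 and 3591, at 0.19. Bmpr2, a receptor for bone morphogenetic proteins, had 843 and 838, at -0.07. Smad1, which carries their signal, had 678 and 531, at 0.27. The repressor Ski had 1967 and 2160, at -0.22, the follistatin-like Fstl1 had 13 and 16, at -0.38, and Junb, an early target gene, had 12817 and 12484, at -0.05. None of the 12 textbook targets counted was past the fold.

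In interstitial macrophages 39 pathway genes were counted and 6 were past the fold, all lower in the exposed library, against 7.79% of all genes in either direction. The median log2 ratio of the 39 was -0.15. Of the 6, Ltbp1, Thbs1 and Fn1 belong to the list of latency and activation. Ltbp1, which holds latent TGF-beta in the matrix, had 0 exposed and 86 control UMIs, and 85 of the 86 lay in the 7 control cells with cavity macrophage markers. Thbs1, a secreted protein that can free TGF-beta, had 109 exposed and 852 control UMIs, of which those 7 cells held 741. Without them its log2 ratio was 0.56 [0.17 to 0.96], against -2.26 with them. Fn1 had 87 UMIs in 6 exposed cells and 2156 UMIs in 21 control cells, of which the 7 cells held 1651, and its log2 ratio was -1.95 without and -3.93 with them. Gdf15 had 154 UMIs in 21 exposed cells and 401 UMIs in 38 control cells, at -0.68, which was 0.20 from 128 and 140 UMIs without cells with a lymphocyte marker. Nedd9, a scaffold protein, had 14 and 45 UMIs, at -0.98. With doublets kept, Gdf15 was at -0.14 and Nedd9 at 0.40, neither past the fold, and Ltbp1, Thbs1 and Fn1 stayed past it at -1.26, -0.73 and -1.31. The exposed library then had 27 Ltbp1, 417 Thbs1 and 719 Fn1 UMIs. Of these, the 2 exposed droplets with cavity macrophage markers held 27, 213 and 526. By the direct marker gate Gdf15 was at -0.47 and Nedd9 at -0.51, neither past it. Nedd9 was also not past it with the stricter cell filter, at -0.49, or without the 7 control cells, at -0.89 with an interval that includes equality.

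**Figure D5:**
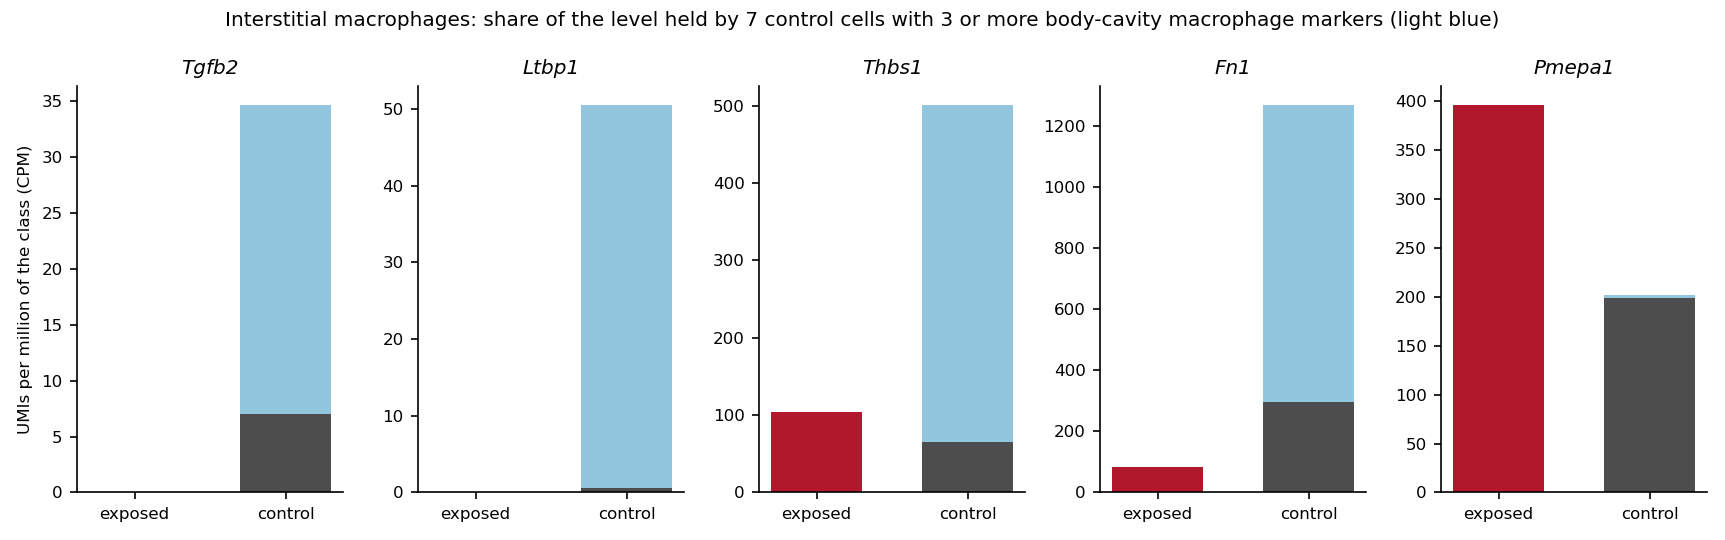
Bars give the level of 5 genes in CPM of all interstitial macrophages, exposed left of control, with the part held by 7 control cells with at least 3 body-cavity macrophage markers in light blue. Those cells held 85 of 86 Ltbp1 UMIs, 47 of 59 Tgfb2 UMIs and 5 of 343 Pmepa1 UMIs of the control library.

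Apart from those 6, no pathway gene counted in interstitial macrophages was past the fold. By list, the genes with the most UMIs were Gdf15, Fn1, Bmpr2, Smad4, Fkbp1a and Junb. Bmpr2 had 62 exposed and 104 control UMIs, at -0.04, and Smad4, the shared partner of the receptor SMADs, had 50 and 70, at 0.22. Fkbp1a, which binds the type I receptor, had 160 and 299, at -0.20, and Junb had 3534 and 5306, at 0.12. Of the 5 genes for activin-binding proteins none was counted.

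Across the 24 class and library values, the genes most like each member were found among 8811 genes by Pearson correlation of log2 CPM. These values share 2 libraries and differ in depth, so the correlations are descriptions. Inhba was most like Arg2, Trem3 and Mmp8, at 0.96, 0.96 and 0.95. Smad7 was most like Sesn3, Ppp1r16b and Satb1, at 0.92, 0.91 and 0.90. Tgfbr1 was most like Cracr2b, Lilra5 and Cd36, at 0.92, 0.91 and 0.90. Tgfb1 was most like Cmpk1 (0.91), Skil most like Basp1 (0.89), Pmepa1 most like Mcm3 (0.85), Tgfb2 most like Cav1 (0.82) and Tgfbr2 most like Itga6 (0.82). Among the members themselves, Tgfb2 and Tgfbr1 had the highest correlation, 0.71, and Inhba and Pmepa1 the lowest, -0.70. The top Tgfb2 value was that of control interstitial macrophages. There the 7 cells with body-cavity macrophage markers held 47 Tgfb2 UMIs and 1 Tgfbr1 UMI, and the other 128 cells held 12 and 195.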

How the data were processed

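Sorted CD45+ lung cells of 1 exposed and 1 control library were measured by droplet RNA sequencing of 3′ ends. The deposited values are raw UMI counts per gene and cell barcode, which the authors produced in Cell Ranger with the mm10 genome, per the submitters' processing notes. Those notes give version 3.1.3, and the count table header gives 3.1.0. Counts were used as deposited, without a normalized unit other than CPM of summed counts.

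Cells with at least 500 UMIs, 200 genes and at most 10% mitochondrial UMIs were kept. Doublets were called against simulated doublets (2 for each cell, 30 neighbours, 0.8% for each 1000 cells). Clustering (2000 variable genes without the members and pathway lists, 30 principal components, 20 neighbours, Leiden resolution 1) used python 3.11.15, numpy 2.4.6, scipy 1.17.1, scikit-learn 1.9.0, leidenalg 0.10.2, igraph 0.11.9 and pandas 2.3.3. Naming a cluster took 3 or more of a class's markers among its 50 leading genes, with no other class ahead in the top 10. Classes under 50 cells in a library and proliferating cells were left out of the comparisons.

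Levels carry exact Poisson, shares exact Clopper-Pearson and ratios exact conditional binomial 95% intervals, and a count of 0 was read against a floor of 3 counts per library. The alternative in which each cell weighs the same has no interval of its own and was read with that of the summed counts. The ratio, its interval and the fold call were tested on simulated Poisson counts for the 2 macrophage classes. That simulation held no bunching of UMIs in cells. Filtering, doublet calling, clustering, naming and thinning were not simulated. All 8 members are named, with the pathway gene of most UMIs in each list, every pathway gene past 1.5-fold in either macrophage class except 1 that is not reported here, and the genes most like each member among those of at least 20 CPM. The members and lists were chosen with earlier results of these data known. The removals of cells with lymphocyte, non-immune or body-cavity macrophage markers were chosen after seeing the data.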

Additional observations from a re-analysis of the deposited data

Results flagged for a closer look

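Ratios past 1.5-fold ran in opposite directions between classes for 2 members, and the difference between classes was not tested. Inhba had a log2 ratio of exposed over control of -1.38 in alveolar macrophages and 1.10 in classical monocytes. Of the 59 control UMIs in alveolar macrophages 32 lay in 1 cell, and without the top cell of each library the alveolar ratio was -0.93 [-1.95 to 0.03], not past the fold. Pmepa1 had 0.97 in interstitial macrophages, against -1.61 in classical monocytes, -2.12 in nonclassical monocytes and -0.59 in NK cells. The nonclassical value turned to 0.64, from 7 exposed and 4 control UMIs, without cells with non-immune markers, and was also above 0 with a stricter cell filter, at Leiden resolution 1.6 and by a direct marker gate. The classical value was not past the fold under 3 alternatives (a stricter filter, the gate and removal of cells with a lymphocyte marker), and the NK cell value was short of it under 6.

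Plasmacytoid dendritic cells, left out of the comparisons with 24 exposed and 23 control cells, had 60 exposed and 31 control Pmepa1 UMIs. That was 245 CPM in the exposed and 144 CPM in the control library, a log2 ratio of 0.77 [0.12 to 1.44].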

How the results depend on the processing

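With 1 library in each group no replicate could be left out, and the intervals hold no spread between animals. No paired analysis was possible because each group has 1 library. Over 13 alternatives, 20 log2 ratios had 219 alternative values, of which 210 kept their sign and 9 did not. Pmepa1 in nonclassical monocytes turned to 0.43 with a stricter cell filter, 1.15 at Leiden resolution 1.6, 0.67 with a direct marker gate and 0.64 without cells with non-immune markers. In alveolar macrophages Inhba was -0.93 without the top cells, and Smad7 was -0.35 with doublets kept and -0.062 without cells with lymphocyte markers. In interstitial macrophages, with doublets kept, Tgfb2 was -0.34 and Pmepa1 0.76. Smad7 in interstitial macrophages, not past 1.5-fold in the reported values, was past it by the direct marker gate and without cells with lymphocyte markers. Members past 1.5-fold in interstitial macrophages were 1 in place of 2 with doublets kept, without body-cavity marker cells and at a count minimum of 100. In the other classes they were 3 in place of 5 at resolution 1.6 and at that minimum. Pathway genes past it in alveolar macrophages, 1 in the reported values, were 3 with the stricter filter and without the top cells, 2 with the gate, with median centring and without cells with non-immune markers, and 0 at a count minimum of 100. The causes were not tested. Depth limits ratios from few UMIs, such as Pmepa1 in classical monocytes (10 exposed and 14 control) and nonclassical monocytes (7 and 29).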
